A study of Sus scrofa with 102 samples.

Results

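The data described here are the breed contrast in fetal skeletal muscle. They comprised the 12 arrays of longissimus dorsi muscle of female pig fetuses at 85 days of gestation, of 102 arrays in the whole series. The 6 LWDL fetuses had an LWD mother, a cross of Landrace, Large White and Duroc, and a Landrace father. The 6 LWDM fetuses had an LWD mother and a Meishan father. All members were chosen by the tissue, age and breed labels of the samples. A single boar of each breed was used, so that breed, sire and litter cannot be told apart. All pigs were fed by the Japanese standard. On each array the RNA of 1 fetus carried Cy3, and liver RNA pooled from LWD sows carried Cy5 as the control shared by all arrays, and the dyes were never exchanged. Values are log2 ratios of the fetus over that control, a measure of level relative to sow liver, and differences are LWDM minus LWDL on the log2 scale, where 1 is a 2-fold difference. The labels do not say how the fetuses fell into litters, so p-values measure the spread between these 12 fetuses.

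Skeletal muscle fibers form in the pig before birth, in a primary and then a secondary wave of myoblast fusion, and the number of fibers is largely set by the time of birth. Myogenic transcription factors drive the differentiation of myoblasts, and inhibitors such as ID2 hold them in the undifferentiated state. The surrounding matrix of collagens, laminins and proteoglycans is laid down at the same time by fibroblasts and by the muscle cells. Growth hormone, the insulin-like growth factors and other ligands of receptor kinases control how fast the tissue grows. Landrace is a lean European breed and Meishan a fat Chinese breed, and the comparison asks which transcripts already differed between their crosses in muscle before birth.

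The labels were checked on the arrays themselves. Of the 43221 probes, 68.3% to 73.6% had a Cy3 signal well above background on an array, and 0 to 14 carried an outlier mark. All 14 tested markers of skeletal muscle, such as ACTA1, MYH7, TTN and TNNT3, were well above background on all 12 arrays, and the median of their levels was 6.58 in LWDL and 6.44 in LWDM. The 6 markers of hepatocytes had a median level of -5.83 in LWDL and -5.81 in LWDM, far below the liver control. At 36 probes that differed over 4-fold between the breed types in 5-month-old muscle, the mean value, signed so that LWDM was the higher, was -0.54 to -0.27 on the LWDL fetal muscle arrays and 0.81 to 1.03 on the LWDM arrays. Every fetal muscle array lay on the side of its label. The 12-day-old muscle arrays did not separate in this way (0.01 to 1.02 in LWDL and -0.52 to 1.12 in LWDM). Most of them lay on the side opposite to their label, with LWDL arrays 2 to 5 at 0.71 to 1.02 and LWDM arrays 3 to 6 at -0.52 to -0.31. LWDL array 1 lay at 0.01, and LWDM arrays 1 and 2 at 0.79 and 1.12. The 12-day-old arrays were used only in 1 alternative fit. The LWDL arrays 1 and 2 shared a slide with the LWDM arrays 5 and 6, and LWDL array 2 correlated over all tested probes slightly more with the LWDM arrays (mean r = 0.978) than with its own group (mean r = 0.972). The LWDL arrays 3 to 6 and the LWDM arrays 1 to 4 each lay on a slide of 1 breed type.

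Of 29582 tested probes, 446 were called, that is, differed by over 2-fold with an adjusted p under 0.05 (1.51%). Of these, 199 were higher in LWDM (0.673%) and 247 were higher in LWDL (0.835%). The 6 arrays of one breed type lay entirely above the 6 of the other at 262 of the called probes, and at 1642 of all tested probes (5.55%). The median size of a called difference was 1.24, and the median difference of all tested probes was 0.05. Gene symbols were known for 260 of the called probes, which stand for 222 genes. The symbols came from tables in which the study listed its differing probes, and 243 of the 260 had been listed there for fetal muscle. A list of genes with symbols therefore holds many called members by construction, and no count below is set against the 1.51% as a result. Among the 1154 tested probes with a symbol that were not listed for fetal muscle, 17 were called (1.47%).

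**Figure D1:**
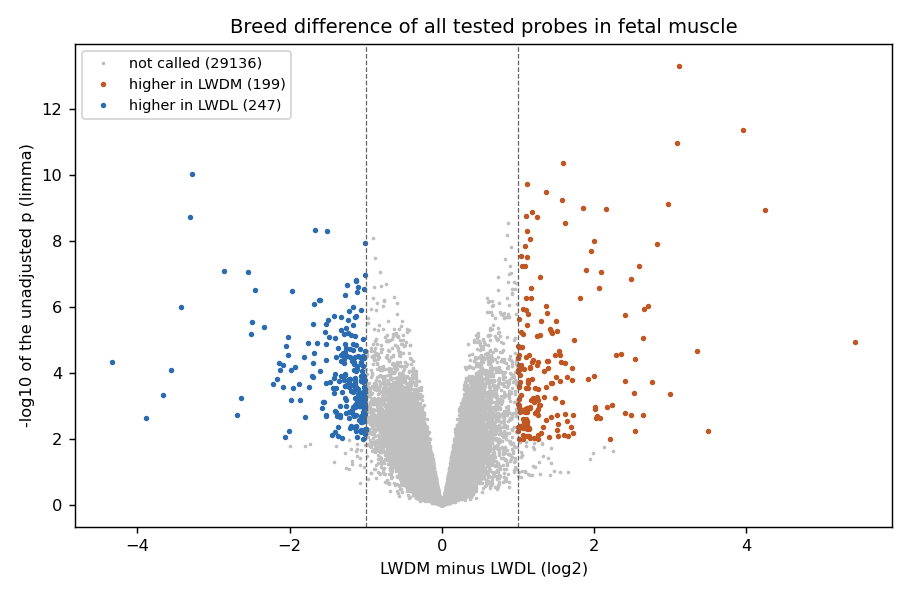
Difference between LWDM and LWDL (log2, x axis) and the size of the unadjusted limma p (-log10, y axis) of the 29582 probes tested in fetal muscle. The 199 called probes higher in LWDM lie at right and the 247 higher in LWDL at left of the dashed lines of a 2-fold difference.

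TOR3A, an ATPase of the torsin family in the endoplasmic reticulum, had the largest difference over all 12 arrays. It was 2.58, 2.98 and 3.09 in the lowest, the median and the highest LWDM fetus, and -3.79, -3.44 and 1.83 in LWDL (difference 5.43 ± 0.79, SE, adjusted p = 0.00149). The groups did not overlap, but LWDL fetus 1 stood near the LWDM fetuses, and 4 LWDL arrays were well above background. On the slide that held both breed types TOR3A differed by 3.67, less than SNRPA1 did there (-4.19). RPS21, a protein of the small ribosomal subunit, was -0.54, -0.13 and 0.66 in LWDL and 3.72, 3.94 and 4.11 in LWDM (3.96 ± 0.16, adjusted p = 6.09e-08), with 3 LWDL arrays well above background. Where a group was dim on some of its arrays, the probe entered the test only through the other breed type. The size and the p of such a difference rest in part on dim spots. Among the genes described further on, 5 LWDL arrays were above background for FH and TAP2 and 3 for DYNLL2. Of the LWDM arrays, 4 were above background for NPNT, SNRNP200, VPS52 and HIST1H2BB, and 3 for SMARCA5, BTAF1 and IRF2. PDE4B, a phosphodiesterase that breaks down cyclic AMP, was measured well above background on all 12 arrays. Its values were 1.87, 2.14 and 2.32 in LWDL and 5.07, 5.22 and 5.42 in LWDM (3.11 ± 0.09, adjusted p = 1.43e-09), an 8.64-fold difference with hardly any spread inside a breed type. A second PDE4B probe differed by 1.86. LBR, the lamin B receptor of the inner nuclear membrane, was -3.50, -2.61 and -0.64 in LWDL and 0.05, 0.17 and 0.34 in LWDM (2.41 ± 0.46, adjusted p = 0.00705). PGM1, which interconverts glucose 1-phosphate and glucose 6-phosphate, was -0.87, -0.49 and 1.90 in LWDL and 2.10, 2.22 and 2.34 in LWDM (2.35 ± 0.37, adjusted p = 0.00252).

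Further genes higher in LWDM had a dim LWDL group. IDI1, an isomerase of the isoprenoid pathway, differed by 3.34 ± 0.52 (adjusted p = 0.00226) at a probe that was well above background on 1 LWDL array, while another IDI1 probe differed by 0.29 (adjusted p = 0.101). FAM200B differed by 2.76 ± 0.54, OAZ3, an antizyme of polyamine metabolism, by 2.71 ± 0.31, and the zinc finger gene ZCCHC4 by 2.65 ± 0.31, each without overlap and with 4, 3 and 1 LWDL arrays well above background. QTRTD1, ABLIM1, PRSS2 and DSCR3 were well above background on no LWDL array, and they too entered the test only through LWDM. For these a lower bound of the fold is given, from the Cy3 channel alone, and no p. QTRTD1, a subunit of the enzyme that puts queuine into transfer RNA, was at least 1.53-fold higher in LWDM. The actin-binding ABLIM1 was at least 1.44-fold higher, the trypsinogen PRSS2 at least 2.19-fold and DSCR3, of the retriever complex of endosomes, at least 1.31-fold. On 4 LWDL arrays ABLIM1 was listed at exactly 0, the value that stands where neither dye gave a signal.

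NID1, or nidogen, a protein that links laminin and collagen in basement membranes, had one of the largest differences in the other direction. Its values were -1.90, -0.76 and -0.38 in LWDL and -4.54, -4.18 and -3.81 in LWDM (difference -3.30 ± 0.22, adjusted p = 3.34e-06), all well above background. COIL, or coilin, the scaffold of Cajal bodies, was 1.73, 2.68 and 3.26 in LWDL and -0.30, 0.02 and 0.12 in LWDM (-2.54 ± 0.24, adjusted p = 6.03e-05). CLASP1, which binds the ends of microtubules, was 1.23, 2.09 and 2.54 in LWDL and -4.61, -0.38 and -0.13 in LWDM (-3.67 ± 0.79, adjusted p = 0.0107, 4 LWDM arrays above background). SNRPA1, a protein of the U2 spliceosomal particle, was lower in LWDM (-4.33 ± 0.72, adjusted p = 0.0034), where 1 array was well above background. Here the groups overlapped, since 5 LWDM fetuses lay between -5.22 and -4.66 and the remaining one at -0.49, inside the LWDL range of -0.94 to 0.82.

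Other genes with non-overlapping groups and higher values in LWDL were SSBP3 (-2.69 ± 0.69), a cofactor of LIM-homeodomain proteins, TMEM176B (-2.49 ± 0.32), the transport protein SEC23IP (-2.04 ± 0.30), the receptor KIT (-1.98 ± 0.35) and WDR3 (-1.75 ± 0.26), which works in ribosome assembly. Of the LWDM arrays, 3 were well above background for SSBP3, 1 for TMEM176B and 2 for SEC23IP, which differed by -1.30 on the shared slide. Of 6 TMEM176B probes, the others differed by -0.71 to -0.57 and were not called. ATP8B2, a lipid flippase of the cell membrane, and CTBS, a lysosomal chitobiase, were well above background on no LWDM array. Like the 3 genes with a partly dim LWDM group, they entered the test only through LWDL. ATP8B2, listed at exactly 0 on 5 LWDM arrays, was at least 1.58-fold higher in LWDL and CTBS at least 1.71-fold.

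**Figure D2:**
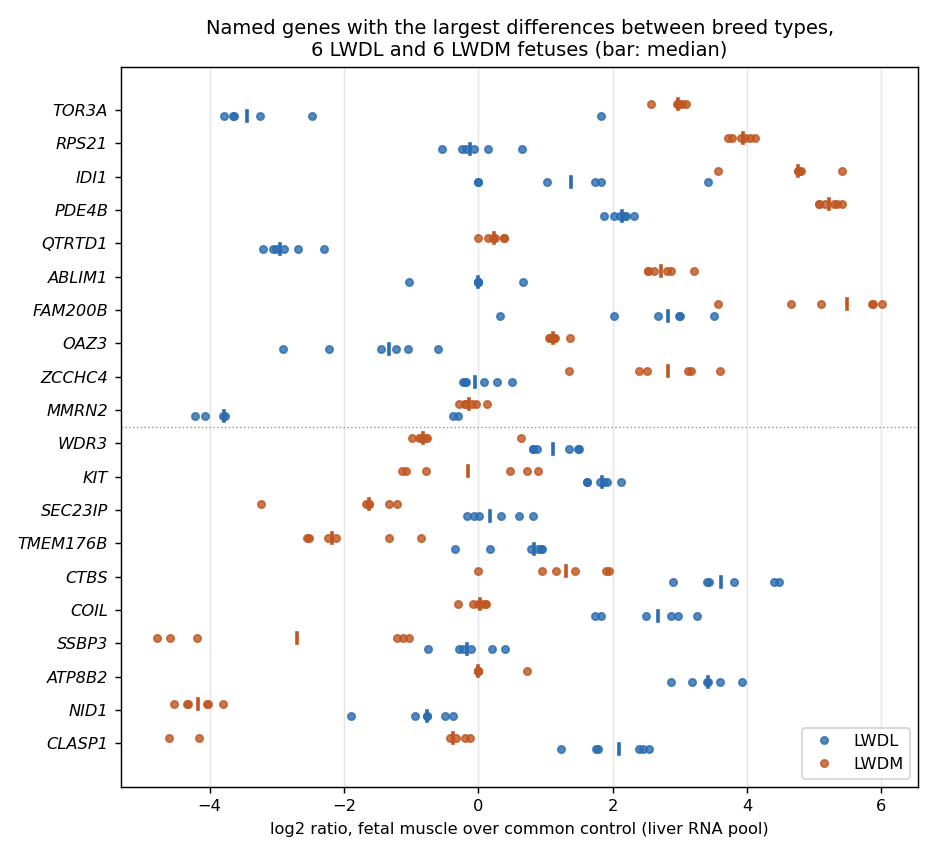
Log2 ratio over the common control (x axis) of the 20 named genes with the largest called differences whose breed types did not overlap, 1 point per fetus with bars at the medians of 6 LWDL (blue) and 6 LWDM (orange) fetuses. TOR3A lies between 2.58 and 3.09 in LWDM and between -3.79 and 1.83 in LWDL, while NID1 lies between -4.54 and -3.81 in LWDM and between -1.90 and -0.38 in LWDL. Points at exactly 0, such as 4 of ABLIM1 in LWDL, are spots without a signal in either dye.

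The list of receptors, adaptors and other genes of growth signals held calls in both directions. Of 21 tested genes of this list, 7 were higher in LWDL, 2 were higher in LWDM and 12 were not called, and the median of the list was 0.09. All 9 called genes had been listed by the study for fetal muscle. GHR, KIT, PECAM1, EPS15, EPS8 and TGFBI were in its terms for genes higher in LWDL. The direction of these calls is therefore no separate result. With normexp and loess 2 genes of this list were called. GHR, the growth hormone receptor, was -2.25, -1.26 and -0.38 in LWDL and -2.58, -2.29 and -1.92 in LWDM (difference -1.01 ± 0.26, adjusted p = 0.0182). The groups overlapped, since LWDL fetus 2 had a value inside the LWDM range. With 1 array left out, the GHR difference ranged from -1.20 to -0.83, and it fell short of the 2-fold threshold in 6 of 12 cases. On the slide that held both breed types, with 2 arrays of each, it was -0.31. IGF1 (0.07, adjusted p = 0.576) and SOCS2 (0.09, adjusted p = 0.327), which act downstream of the receptor, were not called. STAT3, a transcription factor that carries the signals of cytokines and growth factors, was higher in LWDM, at -1.94, -1.22 and -0.80 in LWDL and -0.36, -0.28 and -0.08 in LWDM (1.03 ± 0.15, adjusted p = 0.00183). NRP1, a coreceptor of vascular growth factors and semaphorins, was also higher in LWDM at both of its probes (1.06 and 1.11).

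KIT, the receptor of stem cell factor, was 1.62, 1.84 and 2.12 in LWDL and -1.14, -0.16 and 0.89 in LWDM, without overlap. The LWDM fetuses fell on 2 levels, 3 of them between 0.47 and 0.89 and 3 between -1.14 and -0.78. TGFBR3, or betaglycan, which presents transforming growth factor beta to its receptor, was 1.93, 2.57 and 3.26 in LWDL and -0.06, 0.15 and 2.13 in LWDM (-2.09 ± 0.36, adjusted p = 0.00373). LWDM fetus 4 lay within the LWDL range, and a second TGFBR3 probe differed by -2.14. EPS15 (-1.13 ± 0.20) and EPS8 (-1.06 ± 0.20), substrates of the epidermal growth factor receptor, were higher in LWDL without overlap. On the shared slide they differed by -0.62 and -0.56. EPS8 had 2 LWDM arrays above background and lost its call in 4 of 12 fits with 1 array left out. The receptor ERBB4 was not called (-0.27 ± 0.34, adjusted p = 0.596).

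The apoptosis inhibitor BCL2 was 0.59, 0.83 and 0.97 in LWDL and -0.60, -0.29 and 0.28 in LWDM (-1.05 ± 0.12, adjusted p = 0.000346), with no overlap and a difference of -1.11 on the shared slide. NASP, a histone chaperone, was 1.04, 1.75 and 2.17 in LWDL and 0.58, 0.68 and 0.77 in LWDM (-1.02 ± 0.17, adjusted p = 0.00292), also without overlap. NASP differed by -0.62 on the shared slide and lost its call in 5 of 12 fits with 1 array left out. Of 17 genes that the study names for fetal muscle, most of them only as members of its functional terms, 14 had a tested probe and 13 of those were called. ADAMTS3, AMBN and CDC14A had none that passed the filter on dim spots.

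**Figure D3:**
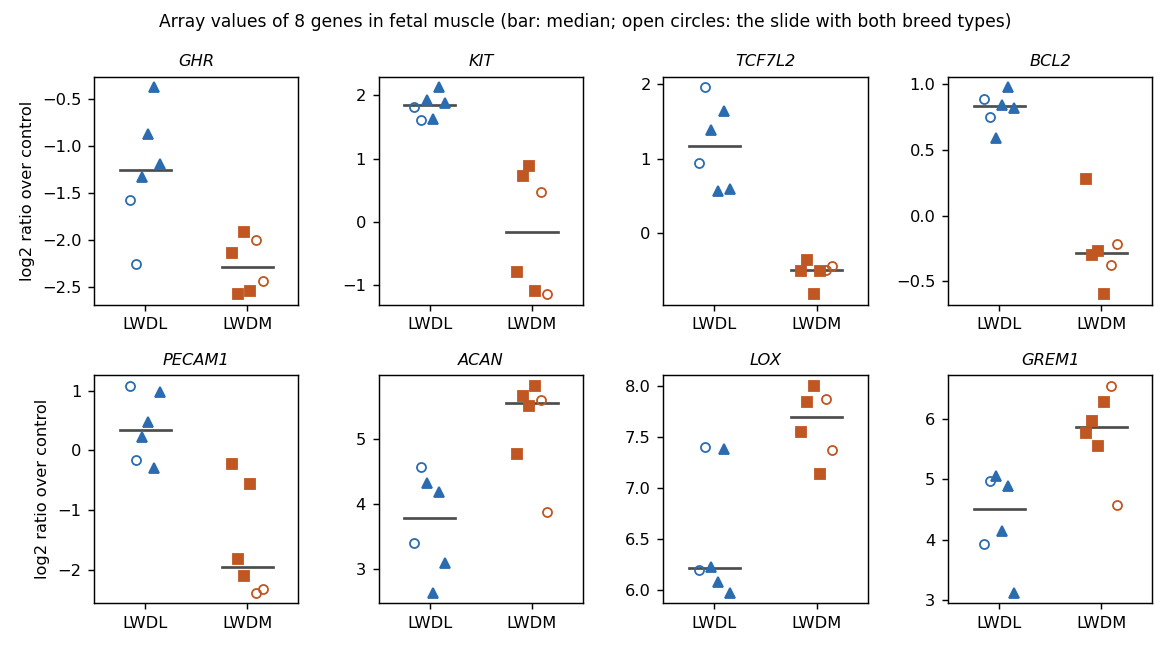
Log2 ratio over the common control of 8 genes on each fetal muscle array, with LWDL in blue, LWDM in orange, bars at the medians of 6 fetuses open circles for the slide that held 2 arrays of each breed type, and squares and triangles for the slides with LWDM or LWDL alone. In GHR the open LWDL circles lie lowest of their group, at -1.57 and -2.25, while in KIT, TCF7L2 and BCL2 the breed types stay apart on that slide too.

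Matrix genes were called in both directions. Of 34 tested, 7 were higher in LWDM, 4 were higher in LWDL and 23 were not called, with a list median of 0.33. With normexp and loess 4 were called. ACAN, or aggrecan, the large proteoglycan of cartilage, was 2.63, 3.79 and 4.57 in LWDL and 3.88, 5.57 and 5.83 in LWDM (1.52 ± 0.39, adjusted p = 0.019). LWDM fetus 6 fell into the LWDL range, and the difference on the shared slide was 0.76. LOX, lysyl oxidase, which cross-links collagen and elastin, was 5.98, 6.21 and 7.40 in LWDL and 7.14, 7.70 and 8.01 in LWDM (1.09 ± 0.27, adjusted p = 0.0171), and 2 LWDL fetuses reached the LWDM range. TNN, a tenascin, was 2.72, 3.53 and 4.43 in LWDL and 4.46, 4.98 and 5.68 in LWDM (1.49 ± 0.28, adjusted p = 0.00601). The differences of CCBE1 (1.07 ± 0.15), a secreted factor of lymphatic growth, and of the collagen chaperone FKBP14 (1.07 ± 0.13) were without overlap.

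MMRN2, a matrix protein of blood vessels, was 2.64 ± 0.68 higher in LWDM (adjusted p = 0.0187), with 2 levels in LWDL that are described below. Among the 4 matrix genes higher in LWDL, NID1 was followed by NPNT, or nephronectin, an integrin ligand (-1.98 ± 0.44, adjusted p = 0.0122), GPC6, a glypican (-1.51 ± 0.30, adjusted p = 0.00754), and TGFBI (-1.15 ± 0.24, adjusted p = 0.00922), with 2 LWDM arrays above background. The fibrillar collagen gene COL1A2 differed by -0.01 (adjusted p = 0.995). PAMR1 had 1 called probe in each direction (1.01 and -1.28), so that no direction is given for it, although the list counts it by the first. On the shared slide TNN differed by 0.80, CCBE1 by 0.69, NPNT by -0.85 and GPC6 by -0.76.

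None of 29 tested genes of the sarcomere and of contraction was called with limma, nor with normexp and loess. The study had listed none of the 29 for fetal muscle. Among all 1154 tested probes with a symbol and not so listed, 1.47% were called, so that few calls could arise in this list. Of the 29 genes, 6 had an unadjusted and 3 an adjusted limma p under 0.05. Their differences lay between -0.52 and 0.75 with a median of 0.08. Slow myosin MYH7 differed by 0.14 (adjusted p = 0.196), perinatal MYH8 by 0.05 (adjusted p = 0.919), fast MYH4 by 0.75 (adjusted p = 0.394), the actin ACTA1 by 0.20 (adjusted p = 0.125) and titin, TTN, by 0.03 (adjusted p = 0.823). Nebulin, NEB, had the lowest value of the list (-0.52, adjusted p = 0.0281). The mean level of the list on an array was 5.06 to 5.32 in LWDL and 5.12 to 5.34 in LWDM.

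Among 13 tested regulators of myogenesis, 3 were called. ID2, an inhibitor of the myogenic helix-loop-helix factors, was -3.71, -2.91 and -2.75 in LWDL and -5.13, -4.77 and -4.42 in LWDM (-1.68 ± 0.19, adjusted p = 0.000265). TCF7L2, a transcription factor of the Wnt pathway that marks connective tissue fibroblasts of muscle, was 0.56, 1.16 and 1.95 in LWDL and -0.82, -0.49 and -0.36 in LWDM (-1.69 ± 0.22, adjusted p = 0.000708). Both were without overlap. GREM1, an antagonist of bone morphogenetic proteins, went the other way at 3.12, 4.52 and 5.06 in LWDL and 4.57, 5.87 and 6.55 in LWDM (1.43 ± 0.37, adjusted p = 0.0198), and LWDM fetus 6 lay within the LWDL range. Follistatin (FST) differed by -0.09 and DLK1 by 0.09, neither of them called.

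The list of RNA processing genes held calls in both directions. Of 22 tested, 9 were higher in LWDL, 3 were higher in LWDM and 10 were not called, with a list median of -0.50. All 12 called genes had been listed by the study for fetal muscle, so that the split of directions is drawn from its calls on these arrays. With normexp and loess 6 genes of the list were called. Besides SNRPA1 and COIL, the splicing factors SF1 (-1.15 ± 0.14, adjusted p = 0.00048) and SNRNP200 (-1.32 ± 0.18, adjusted p = 0.000907) and the splicing regulators CELF1 (-1.10 ± 0.11, adjusted p = 0.000123) and MBNL2 (-1.03 ± 0.16, adjusted p = 0.00266) were higher in LWDL without overlap. On the shared slide SNRNP200, CELF1 and MBNL2 differed by -0.89, -0.80 and -0.80, and MBNL2 lost its call in 4 of 12 fits with 1 array left out. CELF1 and MBNL2 are known as opposing regulators of splicing in developing muscle. The nuclear RNA MALAT1 (-1.03 ± 0.28, adjusted p = 0.0233) and HNRNPH1 (-1.21 ± 0.32, adjusted p = 0.0209) overlapped, and they differed by -0.16 and -0.05 on the shared slide. MALAT1 lost its call in 6 of 12 fits with 1 array left out. PLRG1, of the spliceosome, was 1.38 ± 0.23 higher in LWDM (adjusted p = 0.00327), as were C22orf28, an RNA ligase also called RTCB (2.24 ± 0.52, adjusted p = 0.0139, 0.38 on the shared slide, 1 LWDL array above background), and TROVE2, which binds small noncoding RNAs (2.07 ± 0.55, adjusted p = 0.0205).

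In the chromatin list, 8 of 22 genes were higher in LWDL, 1 was higher in LWDM, which was LBR, and 13 were not called (list median -0.35), and 3 were called with normexp and loess. The remodelling ATPase SMARCA5 differed by -1.27 ± 0.25 and the corepressor NCOR1 by -1.15 ± 0.30, with -0.48 and -0.32 on the shared slide. EZH1, a histone methyltransferase, BTAF1 and BAZ2B differed by -1.05 to -1.01, but only by -0.57 to -0.36 on the shared slide, and they lost their calls in 6, 3 and 6 of 12 fits with 1 array left out. XIST, the RNA of the inactive X chromosome, was 0.09, 0.32 and 0.64 in LWDL and -1.76, -0.83 and -0.39 in LWDM (-1.28 ± 0.21, adjusted p = 0.00343), without overlap in these female fetuses and with a difference of -1.41 on the shared slide. The histone gene HIST1H2BB (-2.06 ± 0.66, adjusted p = 0.0433) lost its call in 8 of 12 such fits and differed by -1.70 on the shared slide.

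Of 10 tested ribosomal proteins, 4 were called. Beside RPS21, the mitochondrial MRPS2 (1.09 ± 0.10, adjusted p = 4.45e-05) and MRPS24 (1.12 ± 0.08, adjusted p = 7e-06) were higher in LWDM, and RPL10 was higher in LWDL (-1.40 ± 0.20, adjusted p = 0.00126). All 4 were without overlap, 4 genes of the list were called with normexp and loess, and RPL10 differed by -0.90 on the shared slide. The coat and transport genes were divided, with 6 of 18 higher in LWDL, 4 higher in LWDM and 8 not called, and 2 were called with normexp and loess. Both SEC23IP and SEC31A (-1.14 ± 0.27, adjusted p = 0.0148), which work in vesicle export from the endoplasmic reticulum, were higher in LWDL, as were the tethering factor VPS52 (-1.53 ± 0.23), the kinesin adaptor TRAK1 (-1.60 ± 0.18) and the endosomal DNAJC13 (-1.69 ± 0.31). The clathrin adaptor subunit AP2S1 (1.29 ± 0.30) and the dynein light chains DYNLL2 (1.02 ± 0.20) and DYNLRB2 (1.09 ± 0.09) were higher in LWDM. AP2S1 was -0.07 and 0.00 in LWDM fetuses 1 and 4, at the level of the highest LWDL fetus (-0.07), and 1.37 to 1.55 in the other LWDM fetuses. DYNLL2 lost its call in 5 of 12 fits with 1 array left out.

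Genes of lipid and energy metabolism were mostly not called. Of 40 tested genes of fatty acid, sterol and ketone metabolism, 3 were higher in LWDM, 3 were higher in LWDL and 34 were not called (list median 0.17). With normexp and loess 1 was called. PCTP, which carries phosphatidylcholine between membranes, was -4.81, -4.18 and -3.60 in LWDL and -3.67, -2.98 and -2.79 in LWDM (1.13 ± 0.22, adjusted p = 0.00673), with a small overlap and 3 LWDL arrays above background. BDH2, a dehydrogenase known for its work on ketone bodies and iron carriers, was -1.89, -1.80 and -1.62 in LWDL and -3.99, -3.94 and -2.33 in LWDM (-1.69 ± 0.28, adjusted p = 0.00347). The lipid synthesis genes FASN (0.10), SCD (0.15), ACLY (0.21) and SREBF1 (0.15) had adjusted p between 0.292 and 0.533. Of 28 genes of glucose, glycogen and mitochondrial metabolism, 4 were called. FH, fumarate hydratase of the citric acid cycle, was higher in LWDM (2.48 ± 0.64, adjusted p = 0.0187), as was PGM1. The groups overlapped for FH, with LWDM fetuses 5 and 6 at -3.70 and -2.65 and the other 4 at -0.08 to 0.11, and it differed by 0.65 on the shared slide. The mitochondrial aspartate-glutamate carrier SLC25A13 was higher in LWDL (-1.61 ± 0.18, adjusted p = 0.000228, 2 LWDM arrays above background). CYCS, cytochrome c, was also called as higher in LWDL at 1 probe (-1.50 ± 0.11), while its other probes differed by 0.15 and -0.09.

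Of 16 genes of antigen presentation and interferon, 4 were called, and none with normexp and loess, while 6 had an unadjusted limma p under 0.05. The peptide transporter TAP2 (1.25 ± 0.27, adjusted p = 0.0112) and the ubiquitin ligase TRIM25 (1.31 ± 0.16, adjusted p = 0.000578) were higher in LWDM, and IRF2 (-1.39 ± 0.35, adjusted p = 0.0172) was higher in LWDL. The aminopeptidase LNPEP, dim on every LWDM array, was at least 1.43-fold higher in LWDL. Markers of other cell types moved with the breed type in part. Of 7 leukocyte markers, S100A12 (1.45 ± 0.28) and S100A9 (1.04 ± 0.14) were higher in LWDM, by 0.89 and 0.52 on the shared slide, and 5 were not called (with normexp and loess none of the 7 was), among them CD163 (-0.84, adjusted p = 0.0148), short of the 2-fold threshold. The mean level of this list on an array was -0.63 to 0.21 in LWDL and 0.01 to 0.61 in LWDM. Of 7 endothelial markers, PECAM1 was higher in LWDL (-0.29, 0.34 and 1.08 against -2.38, -1.96 and -0.23 in LWDM, difference -1.95 ± 0.40, adjusted p = 0.00892, 4 LWDM arrays above background) and MMRN2 was higher in LWDM, with list means of 1.86 to 2.63 in LWDL and 2.33 to 2.74 in LWDM. Of 4 erythroid markers, HBQ1, a theta globin, was higher in LWDM (1.71 ± 0.30), and the embryonic globin HBE1 differed by -0.65 (adjusted p = 0.168).

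Further marker lists were checked in the same way. ACAN was the only called gene among 4 markers of cartilage and tendon, whose mean was 2.89 to 4.09 in LWDL and 3.87 to 4.75 in LWDM, and SOX9 differed by 0.14. STMN2 (1.07 ± 0.31) was the only called gene among 8 nerve and Schwann cell markers, with list means of 1.74 to 2.03 in LWDL and 1.87 to 2.57 in LWDM. It lost its call in 6 of 12 fits with 1 array left out, and without LWDL array 2 the list held 2 called genes. With normexp and loess neither ACAN nor STMN2 was called. None of 7 adipocyte and none of 6 hepatocyte markers was called with limma, nor with normexp and loess, and 1 and 0 of them had an unadjusted p under 0.05. No tested gene of either list had been listed by the study for fetal muscle. The part of other cell types in the results was not tested, and in these bulk samples fewer cells of a type and less RNA per cell cannot be told apart.

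**Figure D4:**
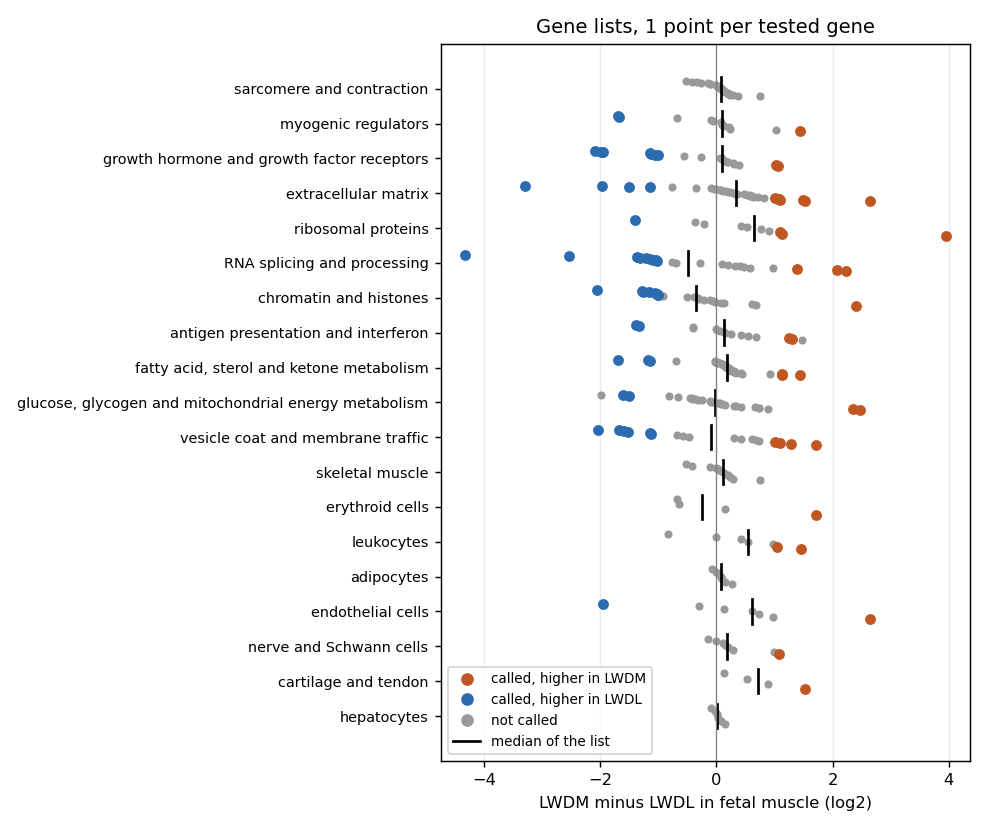
Difference between LWDM and LWDL in fetal muscle (log2, x axis), 1 point per tested gene of each list, with the called genes in orange (higher in LWDM) or blue (higher in LWDL) and a black bar at the median of the list. The 29 sarcomere genes lie between -0.52 and 0.75 without a called gene, and 9 of the 12 called RNA processing genes lie on the left. The study had listed none of these sarcomere genes for fetal muscle, and all 12 of these called RNA processing genes.

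Genes with several probes mostly gave 1 direction. Of 43 genes with more than 1 tested probe and at least 1 of them called, 39 had all probes in 1 direction and 29 had all of them called, with the limit that symbols were given chiefly to listed probes. The 3 probes of WDR3 differed by -1.75, -1.68 and -1.63, those of TROVE2 by 2.07, 2.03 and 2.02, and those of S100A12 by 1.49, 1.45 and 1.44. CPQ, CYCS and PAMR1 were among those with probes in both directions.

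At some genes the fetuses of a breed type fell on separate levels, and the liver array of the same number mostly showed a like order. A range of over 2.5 within a breed type was seen at 10 reported genes in LWDL and 7 in LWDM. SNRPA1 in LWDM fetus 1 was -0.49 in muscle and -0.05 in liver, while the 5 other LWDM fetuses lay at -5.22 to -4.66 in muscle and -4.78 to -4.45 in liver. CLASP1 was -4.61 and -4.15 in the muscle of LWDM fetuses 1 and 5, and -3.89 and -4.59 in their liver, against -0.42 to -0.13 in the muscle of the remaining 4. These 2 fetuses were therefore low in both tissues. SSBP3 was -1.21 to -1.02 in the muscle of LWDM fetuses 1, 4 and 6 and -1.20 to -0.96 in their liver, but -4.78 to -4.19 in the muscle of fetuses 2, 3 and 5. The zinc transporter SLC39A9 was -0.07 and -1.33 in the muscle of LWDM fetuses 1 and 4, and 2.49 to 2.70 in the others. In liver it was 0.47 and -0.81 in fetuses 1 and 4, and 3.05 to 3.41 in the rest.

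In LWDL, MMRN2 was -0.31 and -0.38 in the muscle of fetuses 3 and 5, and -4.22 to -3.77 in the remaining 4. PGM1 was 1.90 in the muscle of fetus 6, against -0.87 to -0.36 in the others, and it was 1.14 in the liver of fetus 6. TOR3A was 1.83 in the muscle and 0.58 in the liver of fetus 1. The 2 arrays numbered LWDL 2 did not run together. The muscle array gave -3.77 for MMRN2, -3.64 for TOR3A and -1.64 for TROVE2, and the liver array gave 0.60, 0.89 and 0.80. Liver counts are given with and without it.

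At 5 months of age, muscle of 8 LWDL and 7 LWDM pigs was measured on the same array. These were other animals than the fetuses. Of the 446 probes called in fetal muscle, 353 were tested there, and 287 of them (81.3%) had the same direction, against 62.9% of all 28062 probes tested at both ages. Their median difference in the fetal direction was 0.52, compared with a median size of 1.21 in the fetus. Called at 5 months in the same direction were 59, or 16.7% of the 353 and 18.7% of the 315 probes called at 5 months, among the probes tested at both ages, of which 1.12% were called at 5 months. In the opposite direction 6 were called. They included HNRNPA3, which was -1.37 in the fetus and 1.78 at 5 months but -0.53 on the fetal slide with both breed types, the relaxin gene RLN2 (1.09 and -1.47), the membrane protein gene LMBRD2 (1.14 and -1.33) and the spectrin gene SPTBN1 (1.04 and -1.06).

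The breed difference itself changed between the ages at 4555 of 31921 probes (14.3%) by the adjusted p of the interaction. Since the fetal calls were chosen on values that enter this test, the 194 of the 446 that passed it are not set against that share. Among the genes with at least 4 arrays above background in each of the 4 groups, the largest changes were those of TOR3A, whose difference was 0.94 at 5 months (interaction 4.49, adjusted p = 0.000606), SLC39A9 (3.51, adjusted p = 0.0106), MMRN2 (3.44, adjusted p = 0.0425) and HNRNPA3 (-3.15, adjusted p = 0.000101). NID1 was higher in LWDL at both ages, by -3.30 in the fetus and by -0.84 at 5 months (interaction adjusted p = 2.67e-07). GHR differed by 0.23 at 5 months (adjusted p = 0.417, interaction -1.23, adjusted p = 0.016), and LOX by -0.73 (adjusted p = 0.0124, interaction 1.82, adjusted p = 0.00165). Each slide of 5-month muscle held 1 breed type. With the slide as a random block, the interaction passed at 906 probes, 83 of them among the 446.

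Fetal liver arrays carried the same numbers as the muscle arrays, and were laid out on 3 slides in the same way, so that slide and breed type were separated only in part there too. A muscle array's deviation from its group mean correlated best with that of the liver array of its own number in 6 of 6 LWDM and 2 of 6 LWDL pairs. Of 326 fetal muscle calls tested in liver, 295 (90.5%) had the same direction, against 60.1% of the 27139 probes tested in both tissues, and the median difference in that direction was 0.78. Called in the same direction were 74, and none was called in the opposite one. The 74 make up 22.7% of the 326 and 38.3% of the 193 probes called in fetal liver, among the probes tested in both tissues, of which 0.711% were called in liver. Without the liver array LWDL 2, 308 of 341 (90.3%) had the same direction and 117 were called in it. PDE4B differed by 3.25 in liver, RPS21 by 3.20, IDI1 by 4.27, SNRPA1 by -4.40 and NID1 by -4.03, and by 3.15, 3.15, 4.10, -4.48 and -4.72 without the array LWDL 2. The other IDI1 probe differed by -0.18 in liver (limma adjusted p = 0.823), and by 0.23 without the array LWDL 2. BCL2 was higher in LWDL in liver as well (-1.70, adjusted p = 0.00647, and -1.44 without that array), and so was KIT, tested only without it (-1.67, adjusted p = 0.0288).

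Breed differences in muscle and liver differed from each other at 1503 of 31707 probes (4.74%), and at 7433 with both arrays of fetus LWDL 2 left out. Of 17 reported genes that passed, 6 had a breed type with no array above background in muscle or liver, so that their values are no measured sizes. Among the others, HBQ1 (interaction 1.44, adjusted p = 0.0191) and the matrix genes FKBP14 (0.97, adjusted p = 0.0053) and CCBE1 (0.86, adjusted p = 0.0167) had the more positive difference in muscle. EPS15 differed by -1.13 in muscle and by 0.14 in liver (interaction adjusted p = 0.0233). Without fetus LWDL 2 these 4 genes passed too (adjusted p = 0.00049 to 0.00274), and NID1 (0.73, adjusted p = 0.59, with it and 1.51, adjusted p = 0.000666, without) and GHR (-0.31, adjusted p = 0.828, with it and -1.11, adjusted p = 0.00357, without) joined them.

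**Figure D5:**
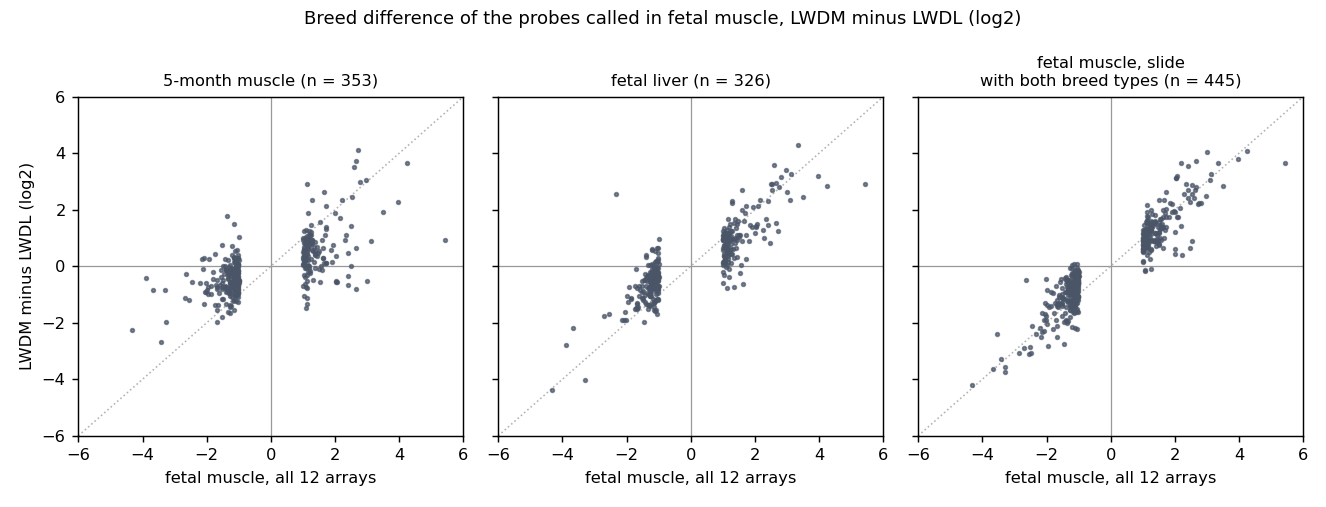
Breed difference (LWDM minus LWDL, log2) of the probes called in fetal muscle, on all 12 arrays (x axis) and in 5-month muscle, in fetal liver and on the fetal muscle slide with 2 arrays of each breed type (y axes), with a dotted line of equal values. Most points lie in the quadrants of the same direction, 287 of 353 in 5-month muscle and 295 of 326 in fetal liver. The right panel shares its arrays with the x axis.

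Called in the same direction in fetal muscle, 5-month muscle and fetal liver were 22 probes, 13 of them with a symbol. They comprised SNRPA1, RPS21, 2 probes of FAM200B, PGM1, 3 probes of WDR3, CHM, FAM13A, XIST, CCL23 and HNRNPA1. On the slide with both breed types CCL23 did not keep its direction (1.26 on all arrays and -0.09 there). One of the probes without a symbol was between 3.59 and 4.45 in LWDM muscle and well above background on no LWDL array of fetal muscle, 5-month muscle or liver, so that in fetal muscle it was at least 2.00-fold higher in LWDM.

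Of the 222 called genes with a symbol, 187 were matched by symbol to a protein-coding gene of RefSeq (Sscrofa11.1), and 8 pairs of them were next to each other in gene order, 6 of these in the same direction. How many such pairs 187 genes would give by chance was not tested. KIDINS220 (-1.14), ID2 (-1.68) and RNF144A (-1.40) followed each other on chromosome 3, KIDINS220 with a difference of only -0.27 on the shared slide, and WDR3 (-1.75) lay beside GDAP2 (-1.28) on chromosome 4, all higher in LWDL. Also on chromosome 4, HFM1 (1.14) with ZNF644 (1.65) and S100A12 (1.49) with S100A9 (1.04) were pairs higher in LWDM. So were MARCH11 (1.55) and ZNF622 (1.13) on chromosome 16, with 1 LWDL array well above background for MARCH11. TRIM25 (1.31) and COIL (-2.54) were neighbors on chromosome 12 with opposite directions, as were FAM180A (1.55) and SLC13A4 (-1.11) on chromosome 18.

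Slide and breed type were separated only in part. The slide with both breed types gave 439 of 445 called probes in the same direction, but its 4 arrays are among the 12 on which the probes were called. With the slide as a fixed block 278 of the 446 had an unadjusted p under 0.05, while 64 probes were called over all. Without the LWDL arrays 1 and 2, which lay on that slide, 888 probes were called, 404 of them among the 446.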

How the data were processed

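Total RNA of each sample was labeled with Cy3 and a pool of LWD sow liver RNA with Cy5, and both were hybridized to an Agilent pig array. The authors scanned the arrays and processed them with Agilent Feature Extraction 9.5. The deposited scanner files hold, for each spot, intensity values of both dyes and a log10 ratio of Cy5 over Cy3 that the software had corrected for background and dye. The authors also deposited a series table of rounded log10 ratios of Cy3 over Cy5, used as an alternative. Here the log10 ratio was turned in sign and converted to log2, so that values are sample over control. From 44638 spots, 1417 controls were left out, and spots marked as outliers were set to missing. A probe entered the test where the Cy3 spot passed the scanner software's background test on all 6 arrays of LWDL, of LWDM or of both.

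LWDM was compared with LWDL by limma 3.58.1 in R 4.3.3, with Benjamini-Hochberg adjustment over all probes tested. A call needed a difference over 2-fold and an adjusted p under 0.05. Interactions with age and tissue were fitted with all 4 groups, the latter with the animal as a random block. Normexp (offset 50) used the median spot intensity. Group labels came from the sample records. Muscle and liver arrays of the same number were treated as 1 fetus, which the labels do not state, and their deviations correlated at 0.12 to 0.22 in LWDM and at -0.11 to 0.13 in LWDL. Symbols came from the study's lists of differing probes (2011 probes, 1526 symbols), which name probes only. Genes were named if they were among the 10 largest called differences without overlap in each direction, among the 5 largest interactions with age or tissue, called members of a gene list or named for fetal muscle in the study's text or terms. The members and lists were chosen with earlier results of these data known. The tests were tried on simulated data. No sequence of the probes was used here, and some single genes are not reported here.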

Additional observations from a re-analysis of the deposited data

Results flagged for a closer look

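One fetus stood apart from the other 5 of its breed type, by Dixon's gap criterion, in 17 of the 188 sets of 6 values examined (94 genes in each breed type). Chance alone gives such a gap in about 1 of 20 sets. In LWDL these were BAZ2B in fetus 2 (-0.78, the others 0.18 to 0.67), DYNLRB2 in fetus 1 (1.09, the others 0.59 to 0.75), LNPEP in fetus 2 (1.11, the others 1.97 to 2.47), NID1 in fetus 3 (-1.90, the others -0.94 to -0.38), PGM1 in fetus 6 (1.90, the others -0.87 to -0.36), TGFBI in fetus 5 (0.63, the others -0.37 to -0.01) and TOR3A in fetus 1 (1.83, the others -3.79 to -2.47). In LWDM they were IDI1 in fetus 3 (3.57, the others 4.76 to 5.41), OAZ3 in fetus 3 (1.37, the others 1.05 to 1.14), PRSS2 in fetus 3 (1.78, the others 3.36 to 4.20), SEC23IP in fetus 4 (-3.24, the others -1.68 to -1.21), SNRPA1 in fetus 1 (-0.49, the others -5.22 to -4.66), TCF7L2 in fetus 3 (-0.82, the others -0.51 to -0.36), TGFBR3 in fetus 4 (2.13, the others -0.06 to 0.52), TOR3A in fetus 6 (2.58, the others 2.95 to 3.09) and WDR3 in fetus 2 (0.63, the others -0.98 to -0.76). ATP8B2 met the criterion in LWDM fetus 4 (0.72) only against values of exactly 0 that stand for no signal, on arrays that were all dim, so that this fetus is not shown to stand apart.

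The breed difference in fetal muscle differed from that in 5-month muscle at 53 of the 94 genes, with adjusted p of the limma interaction from 2.67e-07 to 0.0483. Over all probes 14.3% passed, but the 94 genes were chosen in part on values that enter this test, and their share is not set against it. Values are the fetal difference minus the 5-month difference on the log2 scale. Among the genes reported here, they were positive at TOR3A (4.49), SLC39A9 (3.51), MMRN2 (3.44), MTF1 (3.20), ZFYVE28 (3.07), IDI1 (3.00), QTRTD1 (2.98), PRSS2 (2.92), LBR (2.75), TROVE2 (2.62), FH (2.49), C22orf28 (2.36), PDE4B (2.22), ZCCHC4 (2.00), LOX (1.82), TRIM25 (1.80), PAMR1 (1.71), RPS21 (1.69), HBQ1 (1.59), CCBE1 (1.50), ACAN (1.35), PGM1 (1.24), FKBP14 (1.15), FABP9 (1.12), STMN2 (1.07) and PLRG1 (0.94). They were negative at HIST1H2BB (-3.55), HNRNPA3 (-3.15), CLASP1 (-2.81), NID1 (-2.46), TGFBR3 (-2.38), TMEM176B (-2.19), CYCS (-1.50), OSBPL10 (-1.44), OAZ3 (-1.41), NASP (-1.32), IRF2 (-1.24), GHR (-1.23), SEC23IP (-1.12), BAZ2B (-1.11), MALAT1 (-1.07), LNPEP (-1.02), BTAF1 (-0.97), BDH2 (-0.96), TRAK1 (-0.95), SNRNP200 (-0.92), BCL2 (-0.89), EPS8 (-0.86), ID2 (-0.85), SF1 (-0.78), VPS52 (-0.78) and CELF1 (-0.72). Of these, ACAN, EPS8, IDI1, LNPEP, MTF1, OAZ3, PRSS2, QTRTD1, STMN2 and TMEM176B had a breed type with no array well above background at one of the ages, so that their values are no measured sizes. PAMR1 is listed by 1 probe, and its other called probe had an interaction of -1.37 (limma adjusted p = 0.0381), so that no direction is given for this gene. Each slide of 5-month muscle held 1 breed type, so that slide and breed type cannot be told apart at that age.

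Between fetal muscle and fetal liver the breed difference differed at 17 of the 94 genes, with adjusted p from 0.000137 to 0.0439, and at 37 without fetus LWDL 2. Over all probes 4.74% passed, and 7433 probes did without that fetus, and the same choice of genes applies. The muscle difference minus the liver difference was positive at PRSS2 (3.22), ZFYVE28 (2.75), ACAN (1.92), HBQ1 (1.44), FKBP14 (0.97), CCBE1 (0.86), PAMR1 (0.86) and RPS21 (0.76). It was negative at HIST1H2BB (-3.16), ATP8B2 (-2.65), CTBS (-2.41), BAZ2B (-1.31), EPS15 (-1.26), MALAT1 (-1.26), BTAF1 (-1.21), SLC25A13 (-0.92) and CELF1 (-0.57). The values of ACAN, ATP8B2, CTBS, HIST1H2BB, PRSS2 and ZFYVE28 are no measured sizes, since a breed type had no array well above background in muscle or liver. The other called PAMR1 probe gave -0.40 (limma adjusted p = 0.576), so that no direction is given for PAMR1 here either.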

How the results depend on the processing

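The 446 calls became 114 with normexp and loess, 289 with spots well above background in both breed types, 64 with the slide as a fixed block, 22 on only the slide with both breed types, 6329 without the fold threshold and, in a setting chosen after seeing the data, 888 without LWDL arrays 1 and 2. All 446 kept their direction with normexp and loess, and 439 of them had an unadjusted p under 0.05. With 1 array left out the count was 378 to 633, and it was 633 without LWDL array 2. ERBB4, not called, turned from -0.27 to 0.34 both with the slide as a fixed block and on only the slide with both breed types. The other alternatives gave 311 to 614 calls. Of the 94 genes reported, 39 kept their side of the thresholds with normexp and loess, 15 with the slide as a fixed block and 78 with it as a random block. The medians of the vesicle and glucose lists turned from -0.09 and -0.02 to 0.05 and 0.02 with normexp and loess.

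The interaction with age passed at 906 probes in place of 4555 with the slide as a random block, and that with tissue at 7433 in place of 1503 without fetus LWDL 2. With the replicate number as a block the counts were 437, 4390 and 1665, and all 94 genes kept their side of the thresholds. LWDL and LWDM fetuses of the same number were different animals, so that this number pairs no samples between breed types. The 15 called probes dim on every LWDL array and the 9 dim on every LWDM array have only a lower bound of the difference, and 6 arrays of each breed type limit the precision. The cause of these shifts was not tested.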
